A study of Saccharomyces cerevisiae with 10 samples.

Results

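The comparison set the evolved Saccharomyces cerevisiae strain Z100 against the control strain XH7 after both had been heated to 50 °C for 1 h. It used 5 of the 10 libraries of the series, 3 of Z100 and 2 of XH7 at 50 °C, and covered every expressed gene: 6015 of the 6059 genes in the count table passed the filter on low counts and were tested. The labels call Z100 the adaptive strain and XH7 the control strain, and the study set out to find what had changed in Z100 during evolution under mild heat. The other 5 libraries, 3 of Z100 and 2 of XH7, carry the label 30 °C; the protocol in the labels describes those cultures as held in an ice-water mixture, and which of these applied is not clear from the labels. The labels do not give the mutations of Z100, whether it is 1 clone, or the mating type and ploidy of either strain. The labels do not say whether replicate libraries stem from separate cultures. The p-values below therefore rest on the variation among the libraries at hand, part of which may be technical, and a 3 against 2 design could not go below 0.1 in an exact permutation test of 1 gene. Fewer transcripts in bulk RNA can mean fewer cells that express a gene or less RNA per cell, which cannot be told apart here.

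Baker's yeast answers a rise in temperature with several programmes at once. Hsf1 turns on chaperones that hold, refold or disaggregate proteins, while Msn2 and Msn4 bind the stress response element (STRE, AGGGG) and turn on a general stress programme of hydrophilins, antioxidant enzymes and the enzymes of trehalose and glycogen. Protein kinase A, active while glucose is plentiful, restrains Msn2 and Msn4; respiratory genes, hexose transporters and gluconeogenic genes also follow the supply of glucose.

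The 50 °C libraries held 74363542 to 81442848 counts each. The label was checked on HSP12, HSP26, HSP104 and SSA4, whose summed level was 104135 to 145954 CPM (counts adjusted for sequencing depth) in Z100 and 64547 to 112126 in XH7 at 50 °C, against 302 to 351 in Z100 and 166 to 176 in XH7 at 30 °C. All CPM given here use library sizes scaled by TMM. Markers of mating type were low in both strains: the 7 MATa-specific genes summed to 39.2 to 50.6 CPM in Z100 and 45.2 to 49.4 in XH7, and the 4 MATalpha-specific genes to 16.8 to 23.5 CPM in Z100 and 22 to 32.4 in XH7. No marker was at 0 counts throughout the 5 libraries. The 10 haploid-specific genes summed to 35.7 to 45.5 CPM in Z100 and 44.4 to 46 in XH7, and the 9 marker genes of meiosis and sporulation to 90.7 to 103 CPM in Z100 and 100 to 107 in XH7. Of these markers, BAR1 and NEJ1 were called, both lower in Z100. The 2 XH7 libraries differed more than any other pair of replicates in the series (chi-square per degree of freedom 1407, against 519 or less), and the median gene had an SD of 0.246 on the log2 CPM scale among the Z100 libraries and of 0.305 between the XH7 libraries.

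Z100 differed from XH7 in 539 genes, 8.96% of those tested: 242 were higher (4.02%) and 297 lower (4.94%) at an adjusted p under 0.05 in edgeR's quasi-likelihood test. Rises and falls below mean levels higher or lower in Z100 than in XH7, not changes with heat. The largest are taken among called genes with a symbol and at least 10 CPM in the higher strain. The largest rises included stress genes of the Msn2/Msn4 type and mitochondrial proteins. The largest falls included hexose transporters, a gluconeogenic enzyme, subtelomeric COS genes and a cold-induced cell wall protein. Ty retrotransposon genes, described further below, made up 9 of the higher and 42 of the lower calls. The median log2 fold change of the genes called was 0.90 for the higher and -1.06 for the lower, and 88 higher and 168 lower genes changed by at least 1 on the log2 scale. In all 539 genes called, every Z100 library lay on the same side of every XH7 library, as in 2191 of all genes tested (36.4%; 18% with Z100 above and 18.4% with Z100 below).

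How many genes were called rested on the spread taken from all 10 libraries. The median SD of log2 CPM at 30 °C, 0.166 in Z100 and 0.0873 in XH7, was below the 0.246 and 0.305 at 50 °C. The shared spread therefore leans on tighter libraries than those compared. With the 5 libraries of 50 °C alone, 4 genes passed (1 higher, 3 lower), although 1024 had an unadjusted p under 0.05. HSP12 and CIT1, called stable below, did not pass the same test in that fit (adjusted p = 0.0625 and 0.0907). Leaving out Z100 replicate 3 at 50 °C left 60 higher and 86 lower genes; leaving out Z100 replicate 1 left 130 and 188, and leaving out XH7 replicate 1 left 144 and 184. The libraries of 30 °C enter only through the spread, and without one of them the counts were 77 and 111 (XH7 replicate 1), 77 and 109 (XH7 replicate 2), 124 and 180 (Z100 replicate 1) and 92 and 152 (Z100 replicate 3). The split also moved with the scaling of the libraries: 77 higher and 358 lower on unscaled library sizes, 82 and 312 on the deposited FPKM values, 177 and 345 with upper-quartile scaling, and 593 and 477 in DESeq2. On unscaled library sizes the median of all genes was -0.23, against -0.01 with TMM, so every fold change on that scale sits lower by about this much. In all, 118 genes (48 higher, 70 lower) kept their call when any 1 of the 10 libraries was left out; they are called stable below, and the values of the others are given with what ended their call.

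The largest rises were taken from called genes with a symbol, at least 10 CPM in the higher strain and no overlap between the strains' libraries. The 15 largest were in FMP45, DDR2, HSP12, ECM13, RTN2, FRE2, GPX1, MBR1, FMP16, CTT1, OM45, DCS2, PHM7, ALD3 and BDH2. HSP12, a small hydrophilin that protects membranes and is the textbook readout of Msn2/Msn4, had 5349, 4391 and 4722 CPM in Z100, against 978 and 534 CPM in XH7 (log2 fold change 2.67 ± 0.46 SE, adjusted p = 0.0121). DDR2, another multistress gene of this group, had 767, 268 and 393 CPM in Z100, against 91.1 and 57.2 CPM in XH7 (2.68 ± 0.42, adjusted p = 0.00816). HSP12 was close among the Z100 libraries, and DDR2 was spread widely among them. CTT1, the cytosolic catalase, had 4142, 2807 and 2730 CPM in Z100, against 766 and 1004 CPM in XH7 (1.87 ± 0.26, adjusted p = 0.0047). RTN2, a reticulon-like protein of the endoplasmic reticulum, had 2578, 1555 and 2015 CPM in Z100, against 504 and 393 CPM in XH7 (2.19 ± 0.26, adjusted p = 0.00321). In CTT1 and RTN2 every Z100 library lay above both XH7 libraries, which the rule for choosing these genes required.

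Among the other large rises, ECM13 had 12.8, 11.9 and 14.8 CPM in Z100, against 1.9 and 3.57 CPM in XH7 (2.26 ± 0.28, adjusted p = 0.00337). FRE2, a ferric reductase of the plasma membrane, had 84.6, 41.1 and 49.4 CPM in Z100, against 16.4 and 11.7 CPM in XH7 (2.05 ± 0.31, adjusted p = 0.00647). MBR1, needed for growth on respiratory carbon sources, had 165, 102 and 120.5 CPM in Z100, against 34 and 34 CPM in XH7 (1.92 ± 0.22, adjusted p = 0.00292). These 3 genes are stable, as are FMP16, found in mitochondria (1.87 ± 0.34, adjusted p = 0.0134), OM45, a protein of the mitochondrial outer membrane (1.78 ± 0.22, adjusted p = 0.00337), and BDH2, a relative of butanediol dehydrogenase (1.69 ± 0.29, adjusted p = 0.0121). FMP45, a membrane protein of the eisosome family, had 773 CPM in 1 Z100 library and 90.2 and 102 CPM in the others, against 25.8 and 13.1 CPM in XH7 (4.05 ± 0.94, adjusted p = 0.0312). Its fold change was 2.30 in the fit where it was smallest, without Z100 replicate 1, and the call ended without either XH7 library at 50 °C, without Z100 replicate 1 or 3 at 30 °C and without either XH7 library at 30 °C, with adjusted p up to 0.09.

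The other 4 were called with less margin. GPX1, a glutathione peroxidase, had 197, 84.7 and 112 CPM in Z100, against 39.5 and 25.6 CPM in XH7 (2.01 ± 0.40, adjusted p = 0.0183), and missed the threshold without XH7 replicate 2 at 50 °C (adjusted p = 0.0515). PHM7, a membrane protein, lost its call (1.72 ± 0.37, adjusted p = 0.0243) without that library and without either XH7 library at 30 °C, with adjusted p up to 0.0616. DCS2, a stress-induced relative of the scavenger decapping enzyme (1.74 ± 0.46, adjusted p = 0.0459), and ALD3, a cytosolic aldehyde dehydrogenase (1.70 ± 0.43, adjusted p = 0.0395), kept their calls only without Z100 replicate 2 or XH7 replicate 1 at 50 °C, and reached adjusted p of 0.0964 and 0.0817 in the other fits.

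**Figure D1:**
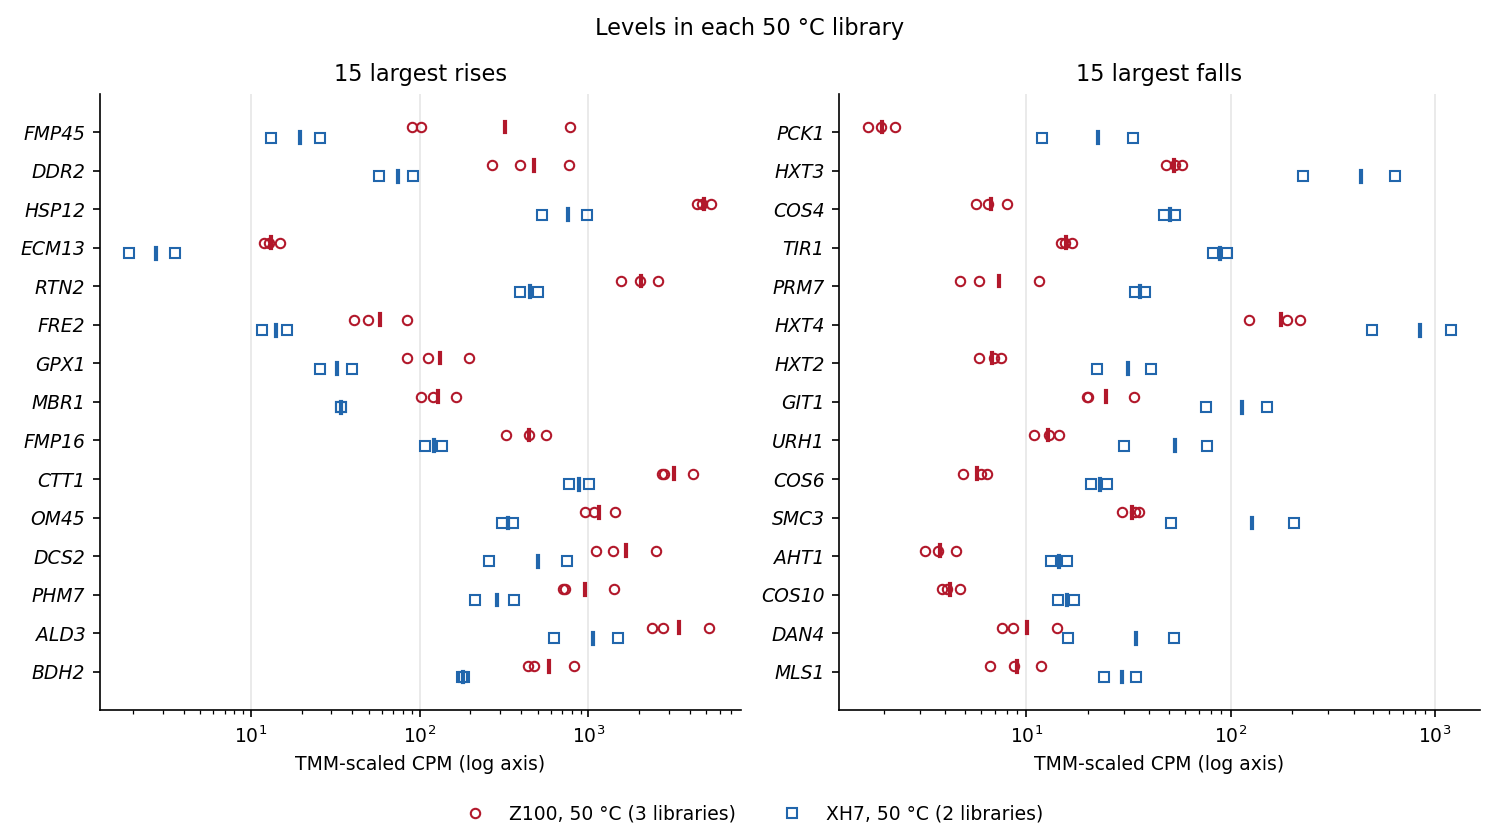
TMM-scaled CPM (log axis) of the 15 largest rises and the 15 largest falls in each 50 °C library; red circles are the 3 Z100 libraries, blue squares the 2 XH7 libraries, and the short bars their means. The red and blue marks of a gene do not overlap in any row, which the rule for choosing these genes required. The 2 XH7 squares lie far apart for HXT3, PCK1 and SMC3.

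STRE letters were counted on both strands in the 300 bases of the R64 genome that end 60 bases before each annotated start. Of the 15 largest rises, 13 held at least 1 match, all but ECM13 and FRE2, and 6 held 2 or more; none of the 15 largest falls held one. The 6 windows with 2 or more are shown because these genes led the comparison and share the element. They are read 5′ to 3′ on the strand of the gene, with the matches (AGGGG, or CCCCT on the other strand) in capitals. The HSP12 window is chrVI:106896-107195 on the plus strand. The DDR2 window is chrXV:231816-232115 on the minus strand. The GPX1 window is chrXI:389944-390243 on the minus strand. The OM45 window is chrIX:93259-93558 on the plus strand. The DCS2 window is chrXV:656904-657203 on the plus strand. The BDH2 window is chrI:33088-33387 on the plus strand.
HSP12: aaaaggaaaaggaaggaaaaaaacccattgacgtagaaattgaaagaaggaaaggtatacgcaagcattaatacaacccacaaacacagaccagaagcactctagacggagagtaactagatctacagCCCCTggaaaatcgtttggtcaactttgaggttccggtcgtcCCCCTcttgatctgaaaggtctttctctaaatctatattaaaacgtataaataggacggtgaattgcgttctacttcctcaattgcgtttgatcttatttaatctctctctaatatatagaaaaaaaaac
DDR2: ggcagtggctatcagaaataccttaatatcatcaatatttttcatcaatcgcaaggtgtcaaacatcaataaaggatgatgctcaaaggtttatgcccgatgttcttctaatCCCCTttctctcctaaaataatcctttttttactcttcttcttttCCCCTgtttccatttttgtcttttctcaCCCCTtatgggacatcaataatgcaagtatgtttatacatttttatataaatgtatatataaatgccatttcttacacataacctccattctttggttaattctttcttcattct
GPX1: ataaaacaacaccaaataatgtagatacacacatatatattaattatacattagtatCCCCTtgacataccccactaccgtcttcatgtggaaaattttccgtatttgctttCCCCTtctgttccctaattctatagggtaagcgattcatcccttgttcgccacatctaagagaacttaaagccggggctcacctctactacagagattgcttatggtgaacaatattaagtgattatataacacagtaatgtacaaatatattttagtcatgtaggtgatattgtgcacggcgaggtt
OM45: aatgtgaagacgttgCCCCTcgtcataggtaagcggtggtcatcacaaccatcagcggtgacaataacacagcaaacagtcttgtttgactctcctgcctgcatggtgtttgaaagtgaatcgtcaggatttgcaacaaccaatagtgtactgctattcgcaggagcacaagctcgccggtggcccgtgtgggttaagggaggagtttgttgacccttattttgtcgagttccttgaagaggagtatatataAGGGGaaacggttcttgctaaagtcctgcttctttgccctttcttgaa
DCS2: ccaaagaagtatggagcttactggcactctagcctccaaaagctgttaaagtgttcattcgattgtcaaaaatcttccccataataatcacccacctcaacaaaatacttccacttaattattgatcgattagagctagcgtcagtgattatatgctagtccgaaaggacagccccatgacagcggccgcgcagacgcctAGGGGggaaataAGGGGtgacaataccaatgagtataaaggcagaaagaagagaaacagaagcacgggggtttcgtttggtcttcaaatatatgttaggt
BDH2: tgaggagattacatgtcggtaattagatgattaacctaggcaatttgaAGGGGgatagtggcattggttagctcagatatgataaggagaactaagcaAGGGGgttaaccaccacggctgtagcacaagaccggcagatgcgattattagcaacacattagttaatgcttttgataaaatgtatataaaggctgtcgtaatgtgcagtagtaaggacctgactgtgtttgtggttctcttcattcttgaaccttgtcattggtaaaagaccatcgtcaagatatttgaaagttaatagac

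The HSP12 and DDR2 windows hold their copies as CCCCT, 2 in HSP12 and 3 in DDR2, while DCS2 and BDH2 hold 2 each as AGGGG. The strains' own sequence may differ from the R64 reference, and a match is a description of letters, not a bound site.

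Over all genes called, 95 of the 242 higher genes had the element in this window (39.3%) and 34 of the 297 lower genes (11.4%), beside 1388 of all 6003 windows (23.1%). The more copies, the higher the gene stood in Z100: the median log2 fold change was 0.40 for the 243 genes with 2 or more matches, 0.09 for the 1145 genes with 1 and -0.05 for the 4615 genes with none. Of the genes with 2 or more, 13.6% were called higher and 0.412% lower, against 3.19% and 5.7% of the genes with none. A heat shock element, searched as GAANNTTC, was in 14% of the higher, 10.4% of the lower and 12.1% of all windows. CCAAT, read by the Hap complex that drives respiratory genes, was in 51.2% of the higher, 41.1% of the lower and 42.9% of all windows. The letters CGTATA were in 31.6% of the lower windows beside 16% of all; 39 of the 42 Ty retrotransposon genes called lower held them, and without Ty genes the shares were 21.6% of the lower windows and 14.9% of all.

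**Figure D2:**
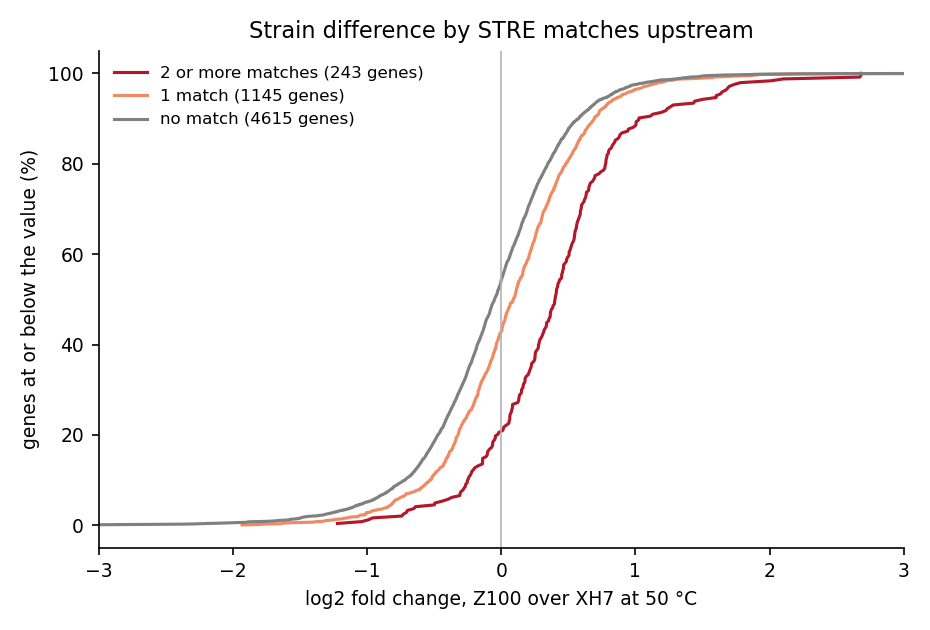
Cumulative share of genes (%, y axis) at or below each log2 fold change of Z100 over XH7 at 50 °C (x axis), for genes with 2 or more, 1 or no STRE match in the 300-base window. The curve of the 243 genes with 2 or more matches lies to the right of the others, with medians of 0.40, 0.09 and -0.05.

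The list of 33 general stress genes of the Msn2/Msn4 type had 14 members higher and none lower, beside 4.02% and 4.94% of all genes. Its median log2 fold change was 1.16, that of all genes -0.01, 31 members were above 0, and 27 held the STRE letters (81.8%). Msn2 and Msn4 bind these letters, so that share follows in part from how the list was chosen. Like the other lists, it was chosen with earlier results of these data known, so its counts are not independent of them. Without XH7 replicate 2 at 50 °C, or without either XH7 library at 30 °C, 8 members were called higher, and without XH7 replicate 1 at 50 °C 1 member was called lower; 7 are stable. Among the stable members, MSC1, a protein that affects meiotic recombination, had 4763, 3304 and 3773 CPM in Z100, against 1568 and 1221 CPM in XH7 (1.5 ± 0.23, adjusted p = 0.00728). UIP4, a protein of the endoplasmic reticulum and nuclear envelope, had 643, 686 and 815 CPM in Z100, against 202 and 269 CPM in XH7 (1.60 ± 0.21, adjusted p = 0.00365). SPI1, a cell wall protein, was called at 1.24 ± 0.27 (adjusted p = 0.0261) and lost the call without Z100 replicate 1 or 3 or XH7 replicate 2 at 50 °C or either XH7 library at 30 °C, with adjusted p up to 0.0632.

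Of 29 cytosolic chaperones and Hsf1 targets, 3 were higher and none lower, where 4.02% of all genes were higher, with a median of 0.33 and 23 members above 0. The stable one was SSE2, the heat-induced Hsp110 that exchanges nucleotide on Hsp70, with 2803, 2321 and 2388 CPM in Z100, against 1266 and 1181 CPM in XH7 (1.03 ± 0.18, adjusted p = 0.0121). HSP31 (1.23 ± 0.28, adjusted p = 0.0275) and the J-protein APJ1 (0.93 ± 0.20, adjusted p = 0.0254) lost their calls without Z100 replicate 1 or 3 at 50 °C, Z100 replicate 3 or either XH7 library at 30 °C, which left 1 call in the list; HSP31 lost it also without XH7 replicate 2 at 50 °C. The classical inducible chaperones did not pass. The disaggregase HSP104 had 25757, 22272 and 21622 CPM in Z100, against 20079 and 15777 CPM in XH7 (0.37 ± 0.22, adjusted p = 0.313). The small heat shock protein HSP26 had 49620, 29530 and 35305 CPM in Z100, against 38512 and 18000 CPM in XH7 (0.43 ± 0.41, adjusted p = 0.544). The Z100 and XH7 libraries overlapped in HSP26 and were apart in HSP104. The inducible Hsp70 SSA4 (0.48 ± 0.30, adjusted p = 0.343) and the Hsp90 gene HSP82 (0.53 ± 0.30, adjusted p = 0.286) did not pass either.

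Of the stress carbohydrates, glycogen had 2 of 16 genes higher and trehalose none of 7, beside 4.02% of all genes. Their medians were 0.53 and 0.70. GSY2, the main glycogen synthase, had 2561, 2238 and 2160 CPM in Z100, against 1109 and 898 CPM in XH7 (1.21 ± 0.19, adjusted p = 0.00806) and is stable. UGP1, which makes the UDP-glucose that both pathways use, was the other call (0.74 ± 0.19, adjusted p = 0.0423); among the fits without 1 library it held only without Z100 replicate 2 at 30 °C, and adjusted p reached 0.106. The glycogen count was 1 without Z100 replicate 1 or 3 at either temperature or without either XH7 library at 30 °C, and without XH7 replicate 2 at 50 °C 1 member was called lower. All 7 trehalose genes stood above 0 with every Z100 library above both XH7 libraries, as did 18% of all genes tested, and none passed in edgeR's test over all 10 libraries. TPS1, trehalose 6-phosphate synthase, had 11530, 5823 and 6210 CPM in Z100, against 4600 and 2585 CPM in XH7 (1.13 ± 0.43, adjusted p = 0.128). TPS2, the phosphatase of the pathway, stood at 0.70 ± 0.22 (adjusted p = 0.0761), the regulatory subunit TSL1 at 0.76 ± 0.30 (adjusted p = 0.141) and the trehalase NTH1 at 0.78 ± 0.23 (adjusted p = 0.0661). DESeq2, which called 593 higher genes in all, called TPS1, TPS2, TSL1 and NTH1 (adjusted p = 0.0351, 0.00541, 0.042 and 0.00426). A replicate block in the compared groups alone, with 579 higher genes in all, called 5 of the 7 trehalose genes higher. Without XH7 replicate 1 at 50 °C, 1 trehalose gene was called.

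Antioxidant enzymes had 4 of 32 members higher, CTT1, GPX1, GLR1 and TRR1, and none lower, beside 4.02% and 4.94% of all genes. The list median of 0.17 turned to -0.03 on unscaled library sizes. Glutathione reductase GLR1 had 469, 412 and 469 CPM in Z100, against 220.1 and 208 CPM in XH7 (1.07 ± 0.19, adjusted p = 0.0122) and is stable with CTT1. Thioredoxin reductase TRR1 (0.83 ± 0.21, adjusted p = 0.0398) lost its call in 8 of the 10 fits without a library, all but those without Z100 replicate 2 or XH7 replicate 1 at 50 °C, with adjusted p up to 0.0909. Without XH7 replicate 2 at 50 °C the list had 2 higher and 1 lower. Iron uptake and siderophore genes had 3 of 27 members higher and none lower, beside 4.02% and 4.94% of all genes. The list median was 0.18. FRE2 is the stable one, and the count was 1 without Z100 replicate 1 or 3 at 50 °C.

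Several genes of mitochondrial respiration were higher in Z100 than in XH7 at 50 °C. Of 19 TCA cycle enzymes, 9 were higher and none lower, with a median of 0.57 and 18 above 0. Of 41 nuclear genes of the respiratory chain and ATP synthase, 12 were higher and none lower, with a median of 0.66 and all 41 above 0. Of all genes, 4.02% were higher, 4.94% lower and 49.3% above 0. The median strain difference of both lists was larger at 30 °C, at 1.49 and 1.07. There, 16 TCA enzymes and 28 respiratory genes were higher and none lower, beside 14.3% and 14.1% of all genes. Fumarase FUM1 had 866, 573 and 616 CPM in Z100, against 260.3 and 169 CPM in XH7 (1.67 ± 0.26, adjusted p = 0.00806). CIT1, the mitochondrial citrate synthase that opens the cycle, had 2040, 1729 and 1962 CPM in Z100, against 701 and 894 CPM in XH7 (1.26 ± 0.20, adjusted p = 0.00772). Both are stable. The malate dehydrogenase MDH1 (1.30 ± 0.25, adjusted p = 0.0169) and KGD2, a subunit of the 2-oxoglutarate dehydrogenase complex (1.17 ± 0.22, adjusted p = 0.0148), reached adjusted p of 0.0541 and 0.0501 without Z100 replicate 3 at 50 °C; MDH1 also missed the threshold without XH7 replicate 1 and on unscaled library sizes (0.0712). Without Z100 replicate 3 the TCA list had 4 calls, and 4 members are stable.

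In the respiratory chain, COX4, a subunit of cytochrome c oxidase, had 217, 264 and 300 CPM in Z100, against 84.4 and 129.8 CPM in XH7 (1.28 ± 0.23, adjusted p = 0.0126; adjusted p = 0.0811 on unscaled library sizes). INH1, which inhibits ATP hydrolysis by the ATP synthase, had 93.7, 91.7 and 114 CPM in Z100, against 36.3 and 45.8 CPM in XH7 (1.28 ± 0.17, adjusted p = 0.00447). ATP17, a subunit of the ATP synthase, had 399.6, 380.0 and 463 CPM in Z100, against 189.5 and 189.5 CPM in XH7 (1.13 ± 0.17, adjusted p = 0.00647). These 3 are the stable members. COX5B, the hypoxic isoform of a cytochrome c oxidase subunit (0.98 ± 0.19, adjusted p = 0.0159), missed the threshold without Z100 replicate 3 at 50 °C (adjusted p = 0.0506). The count of the list moved with single libraries: 3 without Z100 replicate 3, 6 without XH7 replicate 1 and 26 without XH7 replicate 2 at 50 °C, and 6 without either XH7 library at 30 °C.

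Mitochondrial ribosomal proteins had 7 of 73 members higher and 1 lower, beside 4.02% and 4.94% of all genes. Their median was 0.37, and 66 were above 0. MNP1, a protein of the large subunit, had 136, 136 and 157 CPM in Z100, against 80.1 and 70.4 CPM in XH7 (0.93 ± 0.15, adjusted p = 0.00908) and is the stable member. The higher count was 1 without Z100 replicate 3 at 50 °C or either XH7 library at 30 °C, 2 without XH7 replicate 1 at 50 °C or Z100 replicate 3 at 30 °C and 17 without XH7 replicate 2 at 50 °C. The lower call ended without Z100 replicate 3 or XH7 replicate 1 at 50 °C or either XH7 library at 30 °C. Cytosolic ribosomal proteins had 1 of 135 lower and none higher, and ribosome biogenesis none of 112, with medians of -0.09 and 0.29. Both medians changed sign with 1 library: ribosomal proteins stood at 0.97 without XH7 replicate 2 at 50 °C, and ribosome biogenesis at -0.31 without Z100 replicate 2 at 50 °C, so no direction is given for either.

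**Figure D3:**
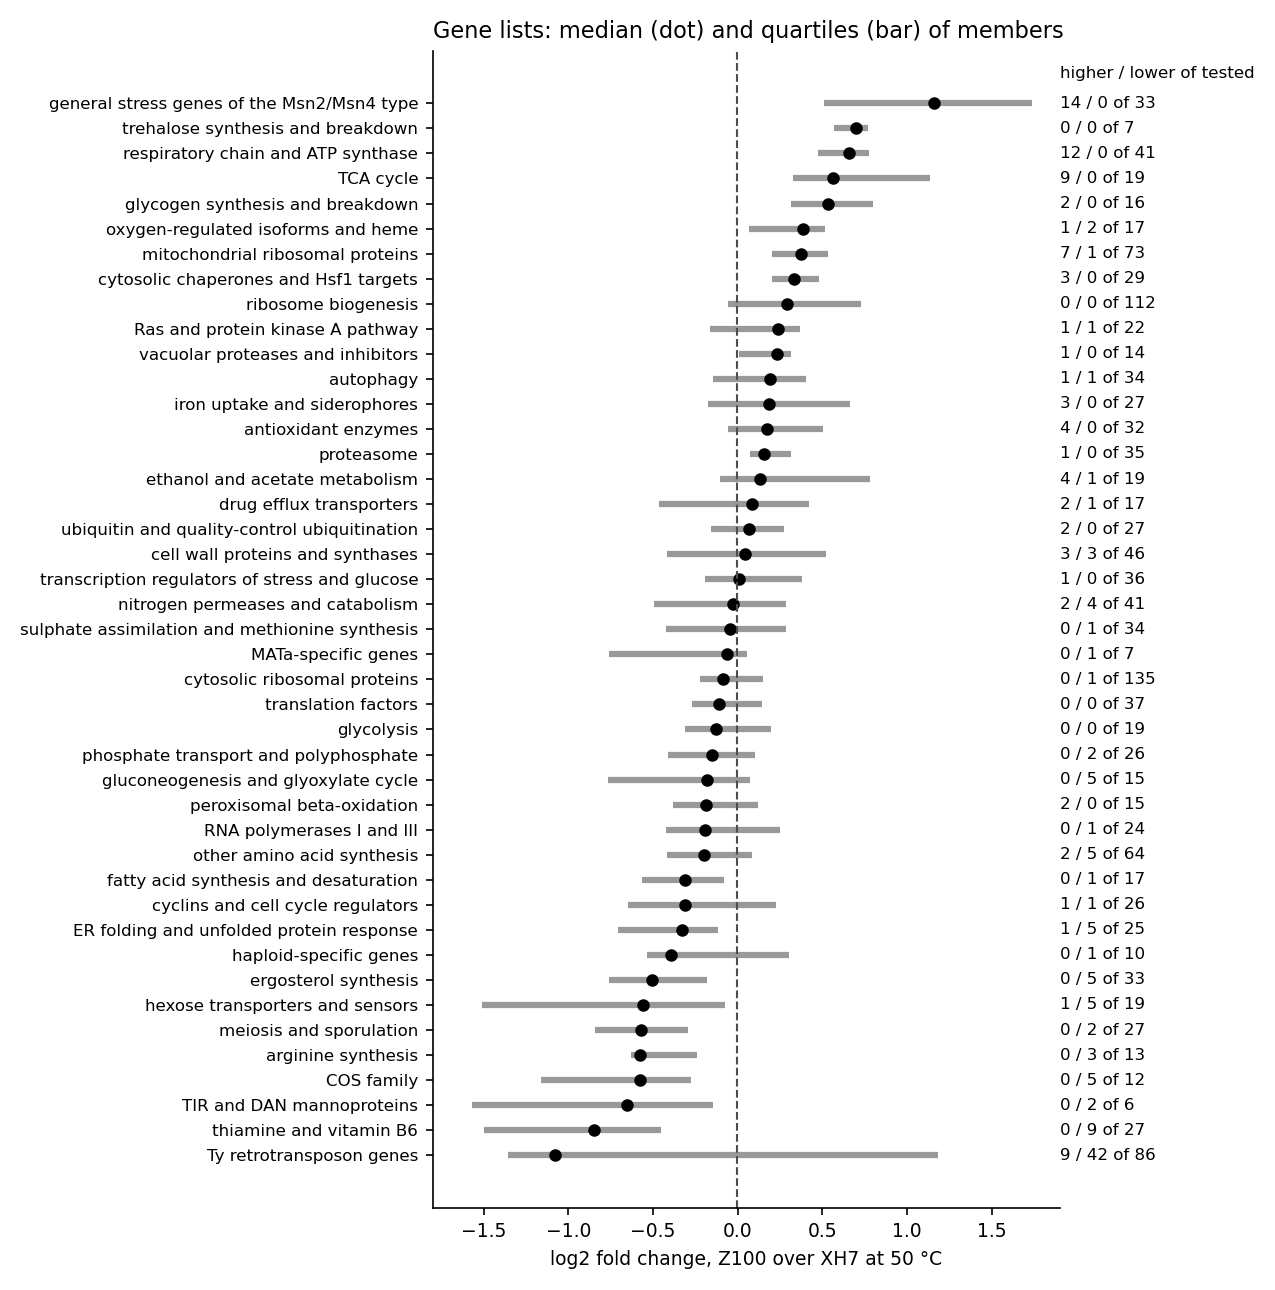
Median (dot) and quartiles (grey bar) of the log2 fold change of Z100 over XH7 at 50 °C for the members of the gene lists shown, sorted by median. The number called higher and lower of those tested is at the right, and the dashed line is the median of all genes. Lists without a called member are left out, except trehalose, ribosome biogenesis, glycolysis and translation factors. The methylcitrate list, with 4 genes, is left out too. The general stress list stands at the top at 1.16, trehalose, the respiratory chain and the TCA cycle follow at 0.70, 0.66 and 0.57, and thiamine and Ty genes stand at the bottom at -0.85 and -1.08.

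In the fermentative end of metabolism, glycolysis had none of 19 members called, against 8.96% of all genes. ADH1, the main alcohol dehydrogenase of fermentation, had 19913, 14297 and 14658 CPM in Z100, against 22528 and 11150 CPM in XH7 (-0.05 ± 0.32, adjusted p = 0.949). PDC1, the main pyruvate decarboxylase, had 5278, 4172 and 3998 CPM in Z100, against 10702 and 5087 CPM in XH7 (-0.82 ± 0.35, adjusted p = 0.17). The libraries of the strains overlapped in both; PDC1 passed, lower in Z100, without XH7 replicate 2 (adjusted p = 0.0472), on unscaled library sizes (0.0452) and with a replicate block in the compared groups alone (0.0497). Ethanol and acetate genes had 4 of 19 higher, BDH2, ALD2, ACH1 and ALD4, and 1 lower, against 4.02% higher and 4.94% lower of all genes; BDH2 is stable, and the higher count was 1 or 2 without Z100 replicate 1 or 3 or XH7 replicate 1 at 50 °C, Z100 replicate 1 or 3 at 30 °C or either XH7 library at 30 °C. ALD4, the mitochondrial aldehyde dehydrogenase, stood at 1.23 ± 0.24 (adjusted p = 0.017), and reached 0.0578 without Z100 replicate 3 or XH7 replicate 1 at 50 °C.

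The hexose transporters HXT2, HXT3 and HXT4 were among the largest falls. Summed over the 19 transporters and sensors, the level was not lower in Z100. It was 10809, 8242 and 10461 CPM in Z100, against 4774 and 7847 CPM in XH7. The calls in their list stand beside 4.02% higher and 4.94% lower of all genes. HXT3, a low-affinity glucose transporter, had 48.2, 57.7 and 53.1 CPM in Z100, against 227 and 641 CPM in XH7 (-3.03 ± 0.37, adjusted p = 0.00337). HXT4 had 123, 218 and 188 CPM in Z100, against 494 and 1196 CPM in XH7 (-2.26 ± 0.39, adjusted p = 0.0121). HXT2, a high-affinity transporter, had 6.96, 7.48 and 5.84 CPM in Z100, against 22.1 and 41 CPM in XH7 (-2.22 ± 0.28, adjusted p = 0.00364). All 3 are stable, and in each XH7 replicate 2 was the highest library. Of the 19 transporters and sensors, 5 were lower and 1 higher, with a median of -0.56; the lower count was 3 without Z100 replicate 3 or XH7 replicate 1 at 50 °C, and the single higher call ended, or became 2, in all 10 fits without a library. HXT1, the transporter of high glucose, had 10.2, 17.7 and 6.81 CPM in Z100, against 12.3 and 21.8 CPM in XH7, and did not pass (-0.56 ± 0.37, adjusted p = 0.367).

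Some genes for making sugar from small carbon compounds were also lower in Z100. Of 15 gluconeogenic and glyoxylate genes, 5 were lower and none higher, beside 4.94% and 4.02% of all genes. The list median was -0.18. PCK1, phosphoenolpyruvate carboxykinase, the committed step of gluconeogenesis, had 1.68, 2.27 and 1.95 CPM in Z100, against 11.9 and 33.1 CPM in XH7 (-3.51 ± 0.37, adjusted p = 0.00292), the largest of the 15 falls. The malate synthase MLS1 had 11.7, 6.64 and 8.66 CPM in Z100, against 24 and 34.5 CPM in XH7 (-1.70 ± 0.25, adjusted p = 0.00628). JEN1, the lactate and pyruvate permease, had 13.3, 11.7 and 13 CPM in Z100, against 25.3 and 37.4 CPM in XH7 (-1.31 ± 0.19, adjusted p = 0.00567). These 3 are stable. Without Z100 replicate 2 or 3 or XH7 replicate 2 at 50 °C, or without any 1 of the 5 libraries at 30 °C, 3 members were called lower, and 1 was called higher without Z100 replicate 2 or XH7 replicate 2 at 50 °C. The median of the list lay between -0.55 and -0.07 over the fits without 1 library.

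Some genes of sterol synthesis and of folding in the endoplasmic reticulum fell in Z100. Of 33 genes of ergosterol synthesis, 5 were lower and none higher, beside 4.94% and 4.02% of all genes. Their median was -0.50, and 4 were above 0. ERG3, the sterol C-5 desaturase, had 161, 193 and 175 CPM in Z100, against 388 and 346 CPM in XH7 (-1.06 ± 0.18, adjusted p = 0.0105) and is the stable member. The lanosterol synthase ERG7 (-0.79 ± 0.15, adjusted p = 0.0163) reached 0.06 without Z100 replicate 3 or XH7 replicate 1 at 50 °C. The lanosterol demethylase ERG11 had 249, 334 and 345 CPM in Z100, against 418 and 580.1 CPM in XH7 (-0.69 ± 0.21, adjusted p = 0.0693) and did not pass. The list's count was 1 without Z100 replicate 3 and 2 without Z100 replicate 1 at 50 °C, 2 without either XH7 library and 3 without Z100 replicate 1 or 3 at 30 °C.

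In the endoplasmic reticulum, 5 of 25 genes of folding and the unfolded protein response were lower and 1 higher, with a median of -0.33. Of all genes, 4.94% were lower and 4.02% higher. EUG1, a protein disulphide isomerase, had 46.7, 56.2 and 66.1 CPM in Z100, against 151 and 110.1 CPM in XH7 (-1.21 ± 0.19, adjusted p = 0.0074), and is stable. The main disulphide isomerase PDI1 had 1831, 1585 and 1497 CPM in Z100, against 5893 and 2537 CPM in XH7 (-1.36 ± 0.35, adjusted p = 0.0412), with adjusted p up to 0.19 without 1 of 8 libraries, all but XH7 replicate 2 at 50 °C and Z100 replicate 2 at 30 °C. The 2 XH7 libraries lay far apart there. The higher gene was HLJ1, a J-protein of the endoplasmic reticulum membrane, with 253, 238 and 296 CPM in Z100, against 143 and 129.9 CPM in XH7 (0.94 ± 0.17, adjusted p = 0.0134; adjusted p = 0.0661 on unscaled library sizes). The lower count was 1 without XH7 replicate 1 at 50 °C, 2 without Z100 replicate 1 or 2 at 50 °C, Z100 replicate 1 or 3 at 30 °C or either XH7 library at 30 °C, 3 without Z100 replicate 3 and 8 without XH7 replicate 2 at 50 °C.

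Thiamine and vitamin B6 genes had 9 of 27 members lower and none higher, beside 4.94% and 4.02% of all genes. Their median was -0.85, and 3 were above 0. PET18, a gene of the thiamine group on chromosome III, had 34.7, 35.2 and 40.8 CPM in Z100, against 103 and 120.3 CPM in XH7 (-1.60 ± 0.18, adjusted p = 0.00292). THI73, a putative plasma membrane permease, had 2.72, 4.73 and 3.36 CPM in Z100, against 10.5 and 10.9 CPM in XH7 (-1.57 ± 0.22, adjusted p = 0.00488). Both are stable with SNZ3, a vitamin B6 gene with near-identical copies whose counts are less certain (-1.58 ± 0.30, adjusted p = 0.015). The count was 5 without Z100 replicate 3 at 50 °C and 4 without either XH7 library at 30 °C. Arginine synthesis had 3 of 13 lower and none higher (median -0.58), none of them stable: without XH7 replicate 1 or Z100 replicate 3 at 50 °C, or Z100 replicate 3 or either XH7 library at 30 °C, none was called, and without Z100 replicate 1 or 2 at 50 °C or Z100 replicate 1 at 30 °C 1 was. Other amino acid synthesis had 5 of 64 lower and 2 higher (median -0.20), against 4.94% lower and 4.02% higher of all genes, with the histidine gene HIS4 at 101, 117 and 99.7 CPM in Z100, against 332 and 264 CPM in XH7 (-1.49 ± 0.20, adjusted p = 0.00464), and the glutamate synthase GLT1 at 90.4, 94 and 101 CPM in Z100, against 200.3 and 172 CPM in XH7 (-0.97 ± 0.17, adjusted p = 0.0129), both stable. The lower count there was 2 or 3 in 8 of the 10 fits without a library, all but those without Z100 replicate 2 or XH7 replicate 1 at 50 °C.

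Transport and cell surface genes moved in both directions. AGP1, a broad amino acid permease, had 152, 134 and 141 CPM in Z100, against 313 and 431 CPM in XH7 (-1.39 ± 0.21, adjusted p = 0.00633), while BAP2, a permease of branched-chain amino acids, had 859, 544 and 584 CPM in Z100, against 292 and 247 CPM in XH7 (1.30 ± 0.23, adjusted p = 0.0126). The glycerophosphoinositol permease GIT1 had 33.6, 20.1 and 19.8 CPM in Z100, against 151 and 75.5 CPM in XH7 (-2.21 ± 0.31, adjusted p = 0.00567), and the low-affinity phosphate transporter PHO87 had 21, 20.1 and 24.1 CPM in Z100, against 47.7 and 44.3 CPM in XH7 (-1.08 ± 0.14, adjusted p = 0.00368). All 4 are stable. TIR1, a cell wall mannoprotein induced by cold and low oxygen, had 15.5, 16.6 and 14.8 CPM in Z100, against 81.6 and 96.2 CPM in XH7 (-2.51 ± 0.38, adjusted p = 0.00647). It was also among the 4 genes that passed with the 5 libraries of 50 °C alone (adjusted p = 0.0142). DAN4, another anaerobic mannoprotein, had 14.1, 8.59 and 7.62 CPM in Z100, against 52.6 and 16 CPM in XH7 (-1.77 ± 0.44, adjusted p = 0.0395), and reached adjusted p of 0.244 without XH7 replicate 1 at 50 °C; its call held only without Z100 replicate 1 or XH7 replicate 2 at 50 °C.

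Other large falls were single genes. URH1, a uridine nucleosidase, had 10.9, 13 and 14.4 CPM in Z100, against 76.7 and 30.0 CPM in XH7 (-2.06 ± 0.33, adjusted p = 0.00816) and is stable. PRM7, a pheromone-regulated membrane protein, had 11.5, 5.87 and 4.73 CPM in Z100, against 33.9 and 37.9 CPM in XH7 (-2.28 ± 0.39, adjusted p = 0.0113) and AHT1 had 4.5, 3.68 and 3.18 CPM in Z100, against 15.8 and 13.2 CPM in XH7 (-1.94 ± 0.22, adjusted p = 0.00292), both stable. The cell cycle inhibitor FAR1, which arrests cells in response to pheromone, had 20.8, 20.1 and 23.5 CPM in Z100, against 63.2 and 40.3 CPM in XH7 (-1.27 ± 0.21, adjusted p = 0.0102) and is stable. SMC3, a cohesin subunit, had 34.1, 35.5 and 29.4 CPM in Z100, against 204 and 51.2 CPM in XH7 (-1.95 ± 0.42, adjusted p = 0.0253), so the XH7 libraries lay far apart, and without XH7 replicate 1 the fold change was -0.64 (adjusted p = 0.084); the call ended also without Z100 replicate 1 or 3 at 50 °C or either XH7 library at 30 °C.

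The COS genes are a subtelomeric family of membrane proteins that guide others into vacuolar sorting. They had 5 of 12 members lower and none higher, beside 4.94% and 4.02% of all genes, with a median of -0.58. COS4 had 5.65, 6.5 and 8.06 CPM in Z100, against 53.4 and 47.1 CPM in XH7 (-2.90 ± 0.18, adjusted p = 7.36e-05), the lowest adjusted p of the falls. It passed also with the 5 libraries of 50 °C alone (adjusted p = 0.0142). It has a near-identical copy, so its counts are less certain. COS6 (-1.99 ± 0.25, adjusted p = 0.00353) and COS10 (-1.90 ± 0.22, adjusted p = 0.00321) are stable too. Of the genes under 20 kb from a chromosome end, 33 of 219 (15.1%) were called lower, against 228 of 5341 (4.27%) over 50 kb from an end. Of those 219 genes, 104 have a near-identical copy in the genome, against 181 of the 5341.

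Ty retrotransposons were chosen as a group after their values were seen. They summed to 1559, 1360 and 1291 CPM in Z100, against 3213 and 2630 CPM in XH7. Of 86 gag and gag-pol genes tested, 42 were lower and 9 higher, beside 4.94% and 4.02% of all genes, with a median of -1.08. All have near-identical copies or overlaps, so that reads cannot be placed on single elements with certainty. The lower count was 20 without Z100 replicate 3 and 21 without XH7 replicate 1 at 50 °C; the higher count was between 3 and 5 in 9 of the 10 fits without a library, all but that without Z100 replicate 2 at 50 °C, and 20 lower and 2 higher are stable. The 2 were the gag genes YPR158W_1, with 6.55, 5.25 and 5.47 CPM in Z100, against 0.255 and 0.201 CPM in XH7 (4.66 ± 0.30, adjusted p = 7.36e-05), and YPL257W, with 1.66, 1.28 and 1.40 CPM in Z100, against 0.0957 and 0.0753 CPM in XH7 (4.06 ± 0.39, adjusted p = 0.0025).

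By position, both arms of chromosome III and the left arm of chromosome VII lay furthest from all genes among nuclear chromosome arms at 50 °C. Of all genes tested, 4.02% were called higher and 4.94% lower. On chromosome III, 40 of 166 genes were lower (24.1%) and none higher, and 157 (94.6%) were below 0, where 50.6% of all genes were. Its median log2 fold change minus that of all genes was -0.60, alike on the left arm (-0.60) and the right (-0.60), and the 7 consecutive segments of up to 25 genes had medians between -0.82 and -0.55. At 30 °C the same difference was -0.50, but the segments were less even, with medians between -0.93 and -0.08. The segment from YCL042W to DCC1 stood at -0.08 there, where the median of all genes was -0.08. On the left arm of chromosome VII, 35 of 247 genes were higher (14.2%) and 3 lower, with a median 0.35 above that of all genes at 50 °C and 0.34 above at 30 °C; the right arm stood at 0.09. Within that arm the first 25 genes, from COS12 to CSE1, had a median of -0.26, and the next 7 segments, from HAP2 to TIF4632, had medians of 0.26 to 0.60. The median of no other nuclear chromosome taken whole lay more than 0.06 from that of all genes. Of the other arms, the left arm of VIII stood at 0.29 (51 genes) and the right arm of I at -0.28 (24 genes). At 30 °C these stood at -0.005 and -0.17, and the right arm of IX at 0.32 (42 genes). Without the genes of both regions, 207 higher and 254 lower genes were left.

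Several genes named above lie on chromosome III: GIT1, AGP1, HIS4, PDI1, PET18 and PHO87, all lower. COX4 and MNP1, both higher, lie on the left arm of chromosome VII, and CTT1 on its right arm. The counts on the chromosomes were lower without some libraries. Chromosome III had 13 lower genes without Z100 replicate 3 and 24 without XH7 replicate 1 at 50 °C, and at 30 °C 26 without Z100 replicate 1, 18 without Z100 replicate 3 and 15 without either XH7 library; 9 are stable. The left arm of VII had 12 higher genes without Z100 replicate 3 and 20 without XH7 replicate 1 at 50 °C, and at 30 °C 22 without Z100 replicate 1, 16 without Z100 replicate 3 and 12 without either XH7 library; 9 are stable, and the lower count was 5 without Z100 replicate 2 or XH7 replicate 1 at 50 °C. Its medians stayed between 0.32 and 0.43 over those fits, and those of chromosome III between -0.68 and -0.50.

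**Figure D4:**
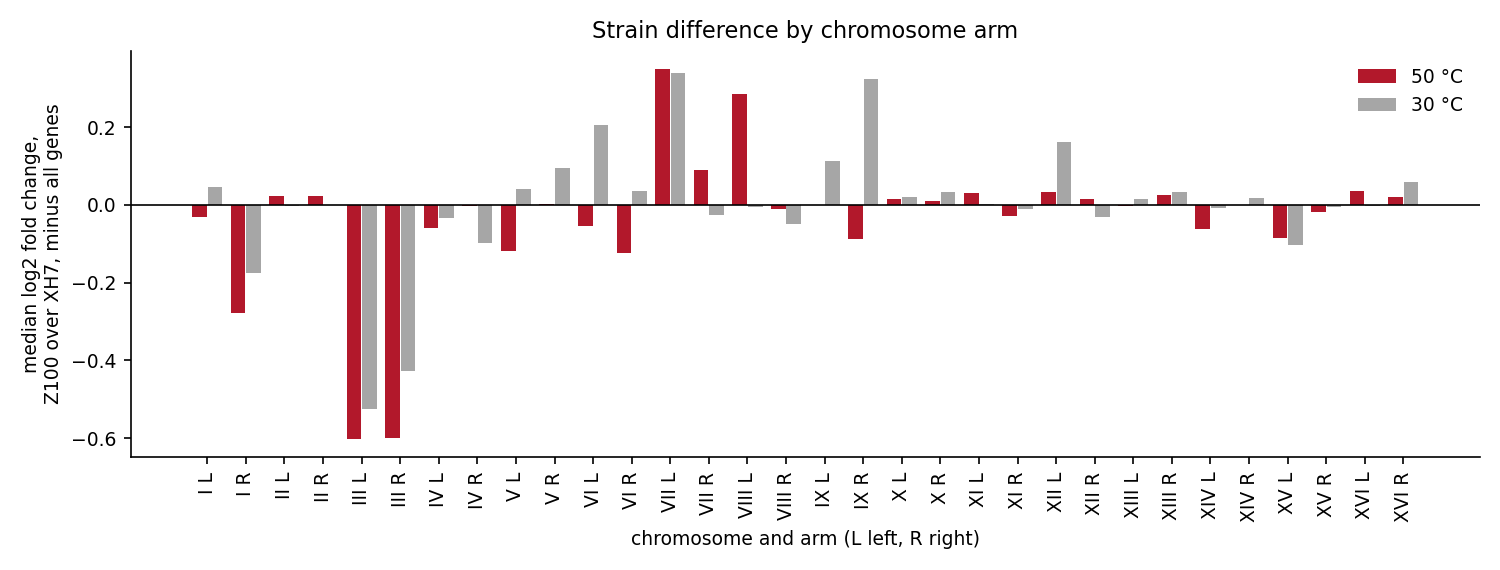
Median log2 fold change of Z100 over XH7 on each chromosome arm minus that of all genes, at 50 °C (red) and at 30 °C (grey). Both arms of chromosome III lie near -0.60 at 50 °C and the left arm of chromosome VII lies near 0.35, with bars of the same sign at 30 °C.

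The strains were also compared at 30 °C, in 5 libraries that share none with the 50 °C comparison, to place the differences seen after heat. At 30 °C 861 genes were higher (14.3%) and 848 lower (14.1%), together 28.4% of those tested; the median SD of log2 CPM there was 0.166 in Z100 and 0.0873 in XH7. Of the 242 genes higher at 50 °C, 114 were also higher at 30 °C (47.1% of the 242 and 13.2% of the 861), and 15 were lower there. Of the 297 genes lower at 50 °C, 130 were also lower at 30 °C (43.8%, and 15.3% of the 848), and 12 were higher there. Across 6015 genes, which are not independent replicates, the log2 fold changes at the 2 temperatures correlated with r = 0.335 and rho = 0.349. CTT1 (1.87 at 50 °C and 3.22 at 30 °C), CIT1 (1.26 at 50 °C and 2.14 at 30 °C), FRE2 (2.05 and 2.38) and COS4 (-2.90 and -2.66) kept their direction with a call at both. The 33 general stress genes had 18 higher and 1 lower at 30 °C, with a median of 1.02. The 19 hexose transporters and sensors had 4 higher and 1 lower there, with a median of 0.63.

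**Figure D5:**
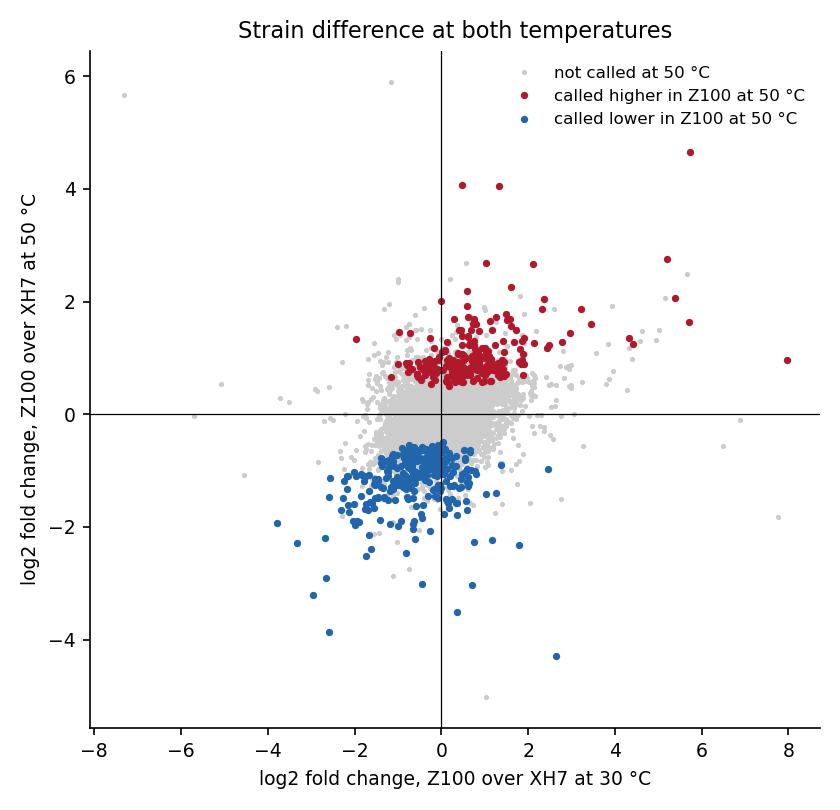
Log2 fold change of Z100 over XH7 at 50 °C (y axis) against that at 30 °C (x axis) for every gene tested, with the 242 genes called higher at 50 °C in red and the 297 called lower in blue. Both colours extend to either side of the vertical zero line, with 114 and 130 genes called in the same direction at 30 °C.

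The difference between the strain effects was tested as an interaction, in which the strain effect of 98 genes was higher (1.63%) and that of 159 lower (2.64%) at 50 °C than at 30 °C, together 4.27% of those tested. The 3 hexose transporters and PCK1 belong to it. HXT2 averaged 6.76 ± 0.836 CPM in Z100 and 31.6 ± 13.3 CPM in XH7 at 50 °C, and 1174 ± 246 CPM in Z100 and 523 ± 65.6 CPM in XH7 at 30 °C (SD, n = 3 and 2), a change of the strain effect by -3.39 ± 0.41 (adjusted p = 0.00582). PCK1 changed by -3.87 ± 0.52 (adjusted p = 0.00794), with a strain difference of 0.36 at 30 °C that did not pass (adjusted p = 0.462). AGP1 averaged 142 ± 8.95 CPM in Z100 and 372 ± 83.5 CPM in XH7 at 50 °C, and 463 ± 53.7 CPM in Z100 and 194 ± 40.6 CPM in XH7 at 30 °C (-2.64 ± 0.30, adjusted p = 0.00582). KEL3, a Kelch-repeat protein, turned the other way, with 53.8 ± 3.5 CPM in Z100 and 19.6 ± 8.03 CPM in XH7 at 50 °C, and 56.8 ± 4.71 CPM in Z100 and 112 ± 4.96 CPM in XH7 at 30 °C (2.43 ± 0.32, adjusted p = 0.00794). TSL1 and IGD1, an inhibitor of glycogen debranching, were far higher in Z100 at 30 °C (3.95 and 4.27 on the log2 scale), with smaller differences at 50 °C (0.76 and 0.44) that did not pass.

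The count of this test moved widely with single libraries. Without XH7 replicate 2 at 30 °C 2 genes were called, and without XH7 replicate 1 there 22. Without Z100 replicate 1, 2 or 3 at 30 °C 114, 175 and 57 were called, without Z100 replicate 1, 2 or 3 at 50 °C 432, 194 and 87, and without XH7 replicate 1 or 2 at 50 °C 137 and 1065. Of the genes named here, HXT2, AGP1, KEL3 and IGD1 were called in 9 of those 10 fits, and PCK1, HXT3 and TSL1 in 8. PDH1, the 2-methylcitrate dehydratase of propionate breakdown, was called in all 10 (-3.42 ± 0.30, adjusted p = 0.0013). It averaged 2.48 ± 0.379 CPM in Z100 and 4.84 ± 0.554 CPM in XH7 at 50 °C, and 106 ± 21.2 CPM in Z100 and 19.4 ± 0.989 CPM in XH7 at 30 °C.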

How the data were processed

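Total RNA (TRIzol) was poly(A)-selected and sequenced on a NovaSeq from NEBNext Ultra libraries, per the labels' protocols; this kit does not mark strand, so overlapping genes cannot be separated. The authors deposited raw read counts per gene, and FPKM values per gene of the same libraries; which aligner, counter and annotation they used is not given in the sources used here. Gene starts and ends matched the R64 assembly for 6051 of 6059 genes, and 3 lines without a gene name were left out. Groups came from the labels.

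Counts were fitted with edgeR 4.0.16 (R 4.3.3), with filterByExpr, TMM scaling and the quasi-likelihood F test, in 1 model of 4 group means over all 10 libraries (6 residual degrees of freedom). Benjamini-Hochberg adjustment ran over 6015 genes, with a call at adjusted p under 0.05; fold changes are given ± SE. CPM are TMM-scaled. The script was tested on simulated data. Near-identical copies were found with BLAST+ 2.17.0 (95% identity over 50% of length): 333 genes have one and 295 overlap another. Alternatives were other scalings and filters, DESeq2 1.42.0, limma 3.58.1 on voom weights and on log2(FPKM + 1), a fold threshold, a replicate term and leaving out each library.

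Genes were named by a rule: the 15 largest rises and falls among called genes of at least 10 CPM with a symbol and no overlap between the strains' libraries, the called members of each list by size, fixed anchor genes, and the extremes of the interaction. The Ty genes, outside this rule, were chosen after their values were seen. The members and gene lists were chosen with earlier results of these data known. Counting error alone limits a gene at 0 counts to 3 counts, which is 0.0403 CPM or less per 50 °C library.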

Additional observations from a re-analysis of the deposited data

Results flagged for a closer look

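For the genes below, the difference between the strains changed with temperature, by edgeR's interaction test on 10 libraries (adjusted p under 0.05); each value is the log2 fold change of Z100 over XH7 at 50 °C minus that at 30 °C. The first set kept the call in at least 8 of the 10 fits that left out 1 library, PDH1 in all 10. The strain effect was lower at 50 °C in PCK1 (-3.87), IGD1 (-3.84), ICL2 (-3.84), HXT3 (-3.73), PDH1 (-3.42), HXT2 (-3.39), TSL1 (-3.18), AGP1 (-2.64), MLS1 (-2.3), MEP3 (-2.26), SRL1 (-1.92), JEN1 (-1.71), GLT1 (-1.57) and INH1 (-1.5). It was higher at 50 °C in KEL3 (2.43) and SNM1 (1.88).

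The next set kept it in 5 to 7 of the 10 fits. The strain effect was lower at 50 °C in HXT4 (-3.01), ILV6 (-1.89) and HXK1 (-1.44). It was higher at 50 °C in CUR1 (2.52), ANB1 (2.01), SGT2 (1.65), RKR1 (1.47) and RPN14 (1.04).

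The last set kept it in 1 to 4 of the 10 fits, so these calls rest on few libraries. The strain effect was lower at 50 °C in HXT10 (-4.1), SNZ3 (-1.94), ARG4 (-1.86), BAR1 (-1.61), FAR1 (-1.54), ATG22 (-1.53), HIS4 (-1.42), AHT1 (-1.29), ERG3 (-1.11), MNP1 (-0.92) and PHO87 (-0.91). It was higher at 50 °C in IPI3 (2.06), LRP1 (1.87), RTN2 (1.6), GPM2 (1.37), MBR1 (1.34), HLJ1 (1.1) and SNQ2 (1.08). SNZ3 has near-identical copies, and its counts are less certain. The cause of these differences was not tested.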

How the results depend on the processing

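The number of genes called depended on the libraries and the model more than the direction of single genes did: among 4091 values of 172 named genes under the alternatives, 11 of 4 genes that were not called changed sign and were not called there either, 3099 kept their direction and side of the threshold, 902 no longer passed and 79 passed newly. At 50 °C the counts of 242 higher and 297 lower genes became 77 higher on unscaled library sizes, 82 higher on FPKM, 593 and 477 with DESeq2, 2 and 3 against a fold threshold of 2, and 1 and 3 in the compared groups alone. Leaving out 1 library gave 60 to 300 higher and 86 to 307 lower. At 30 °C the 861 higher and 848 lower genes became 84 and 31 against the fold threshold, and 1551 and 1604 in the compared groups alone; leaving out 1 library gave 161 to 1238 higher and 131 to 1145 lower. For the interaction, 98 higher and 159 lower became 39 and 299 on unscaled library sizes, 4 and 19 against the fold threshold, 359 and 482 with DESeq2, and 59 and 314 on FPKM; leaving out 1 library gave 0 to 426 higher and 2 to 639 lower. Of the genes that changed sign, ADH1 (-0.05) stood at 0.015 with limma-voom, 0.02 and 0.072 with a replicate block in all libraries and in the compared groups alone, and 0.09 with the block within each temperature. Without 1 library, ADH1 ran from -0.435 to 0.546, CUR1 (-0.06) from -0.43 to 0.48, ICL2 (-0.57) from -0.999 to 0.107 and MF(ALPHA)1 (-0.36) from -0.77 to 0.25. The cause was not tested.

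With the replicate number of the labels as a block in all 10 libraries, 103 higher and 137 lower genes were called at 50 °C, and 49 and 103 for the interaction. A replicate block in the compared groups alone gave 579 and 567 at 50 °C and 1362 and 1346 at 30 °C. A replicate block within each temperature, chosen after seeing the data, gave 463 and 432 at 50 °C, 1089 and 1317 at 30 °C and 391 and 314 for the interaction. For each library, the deviation of log2 CPM from its group mean was taken per gene. These deviations correlated between same-numbered libraries at 0.718 and 0.605 at 50 °C and at -0.135 and -0.193 at 30 °C. With 2 XH7 libraries the deviations mirror each other, so Z100 replicate 1 stood at -0.718 with XH7 replicate 2 at 50 °C. There were fewer than 3 pairs at each temperature, so the numbers are not taken as a pairing. In windows of the first 300 bases before the gene start, STRE letters were in 37.6% of higher, 11.8% of lower and 22.2% of all genes; in the first 600 bases, in 52.1%, 32% and 39.7%. This window choice was added after seeing the data.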
